A study of Gallus gallus with 4 samples.

Results

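Nuclear genes of oxidative phosphorylation were followed in 4 libraries of granulosa cells from the chicken ovary. Members were chosen by name: rows of the deposited tables whose gene name begins with NDUF, SDHA to SDHD, UQCR, COX4 to COX8 or ATP5, or is CYC1 or CYCS. This found 62 of 19309 rows with a value. All 62 had a mean of at least 1 FPKM (reads of a gene scaled to its length and to the size of the library) over the 4 libraries, so the filter dropped 0 of them, and 11203 rows of the whole series passed it. By the function of their product, 28 members belong to complex I, 3 to complex II, 5 to complex III, 7 to complex IV and 11 to complex V, the ATP synthase, while 8 are assembly or coupling factors. Names such as SDHB, UQCRFS1, CYC1, CYCS and COX5B were not among the names found and are not analysed here.

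Oxidative phosphorylation takes place in the inner membrane of mitochondria. Complex I takes electrons from NADH and complex II takes them from succinate. Complex III passes them by way of cytochrome c to complex IV, which reduces oxygen. Complexes I, III and IV pump protons, and the ATP synthase uses the returning protons to make ATP. Most subunits are encoded in the nucleus and a small number in mitochondrial DNA, and assembly factors help to build the complexes without being part of them. In steroid-making cells such as granulosa cells, mitochondria also hold the enzyme that cuts cholesterol, the start of progesterone synthesis. Roles given below are those known from mammals.

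The samples were granulosa cells, described as natural, of Gallus gallus hens aged 10 to 15 months, with no genotype or treatment given. The 4 groups were proximal and distal cells of F1 follicles and proximal and distal cells of F5 follicles, where F1 is the follicle nearest to ovulation, F5 is an earlier stage, and position is relative to the germinal disc that holds the oocyte nucleus. Each group had 1 library of poly-A selected RNA, and the number of hens or follicles behind it is not stated. The question set by the design is how the cells differ by position and by stage.

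The libraries held 13948790 to 18020270 reads. Granulosa markers fixed for this work were found for 11 of 12 names and summed to 89119 FPKM in proximal and 118800 FPKM in distal F1 cells, and 21261 FPKM in proximal and 22004 FPKM in distal F5 cells. Most of that sum was ZP3, an egg coat protein, which took 11.4% and 15.4% of reads in F1 proximal and distal cells and 1.98% and 2.04% in F5 proximal and distal cells. Across all 11203 genes the median difference F1 minus F5 on the log2(FPKM + 1) scale was -0.33. Differences of members are therefore read against that shift.

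The marker sums of other cell types were low beside the granulosa sums. Theca and stroma markers (11 found, 1 of them at 0 in every library) summed to 14.2 FPKM in proximal and 8.68 FPKM in distal F1 cells, and 21.5 FPKM in proximal and 15.1 FPKM in distal F5 cells. CYP17A1, the defining enzyme of theca cells, had 0.135 FPKM in proximal and 0.305 FPKM in distal F1 cells, and 2.59 FPKM in proximal and 2.17 FPKM in distal F5 cells (difference F1 minus F5 of -1.47 on the log2(FPKM + 1) scale, limma adjusted p = 0.015). MYH11, a smooth muscle myosin of the same list, had 0.763 FPKM in proximal and 0.690 FPKM in distal F1 cells, and 4.81 FPKM in proximal and 4.03 FPKM in distal F5 cells (-1.65, limma adjusted p = 0.012). Both fell with median-ratio scaling as well, and their part in the members' follicle differences was not tested. COL1A2, the other marker of this list that was tested, was level by follicle (-0.03, limma adjusted p = 0.86). It had 11.8 FPKM in proximal and 6.55 FPKM in distal F1 cells, and 11.7 FPKM in proximal and 6.93 FPKM in distal F5 cells. Leukocyte markers summed to between 0.497 and 2.20 FPKM, with SPI1 at 0 throughout, and erythrocyte markers to between 0.0711 and 1.03 FPKM, with HBE at 0 throughout. Endothelial markers (8 of 8 found) summed to 174 FPKM in proximal and 158 FPKM in distal F1 cells, and 98.5 FPKM in proximal and 61.4 FPKM in distal F5 cells. CLDN5, listed as cldn5, made up 121 and 109 FPKM of the F1 sums and 30.9 and 6.64 FPKM of the F5 sums. Of the 4 endothelial markers tested, CLDN5 rose (2.89, limma adjusted p = 0.020) and EMCN fell (-1.07, limma adjusted p = 0.022). PECAM1 and EGFL7 were not called (-0.28 and -0.16). The endothelial markers CDH5, KDR, TEK and VWF were not tested and had at most 0.358 FPKM in any library (CDH5 in proximal F5 cells). In bulk samples, fewer cells of a type and less RNA per cell cannot be told apart.

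The members were abundant genes. Their mean level ran from 2.26 to 769 FPKM with a median of 84.5 FPKM, against a median of 11.1 FPKM for all genes tested, and 55 of the 62 lay above that median. The 54 subunits had a median of 103 FPKM. The assembly and coupling factors lay between 2.26 and 35.8 FPKM. The reads of all members made up 0.641% and 0.680% of F1 proximal and distal libraries and 0.687% and 0.763% of F5 proximal and distal libraries. FPKM is a level per length of gene, so levels can be set beside each other between genes.

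By complex, the median level of a member was 204 FPKM in complex IV, 143 FPKM in the ATP synthase, 141 FPKM in complex III, 69.2 FPKM in complex II, 64.3 FPKM in complex I and 9.23 FPKM among the assembly and coupling factors. The highest member was ATP5B, the catalytic beta subunit of the ATP synthase, with 637 FPKM in proximal and 768 FPKM in distal F1 cells, and 765 FPKM in proximal and 907 FPKM in distal F5 cells. COX6C, a subunit of complex IV, had 552 FPKM in proximal and 482 FPKM in distal F1 cells, and 407 FPKM in proximal and 435 FPKM in distal F5 cells. In complex I, NDUFB1, a small accessory subunit, was highest with 348 FPKM in proximal and 356 FPKM in distal F1 cells, and 297 FPKM in proximal and 347 FPKM in distal F5 cells. Within complex I the means spanned 11.7 to 337 FPKM.

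**Figure D1:**
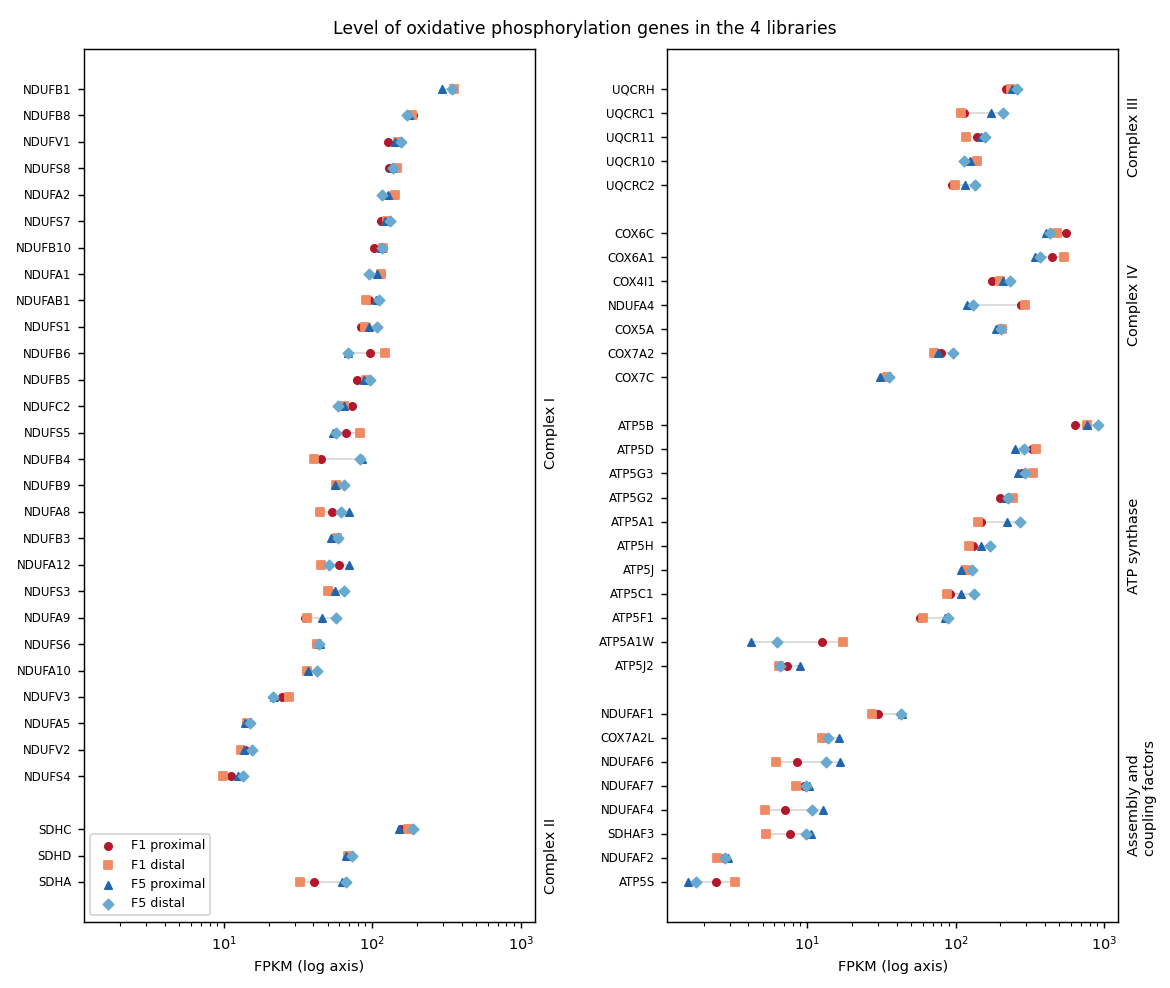
FPKM (log axis) of the members in the 4 libraries, 1 point per library, grouped by complex and ordered by mean level; the grey line joins the lowest and highest library. Most members have 4 points close together, while NDUFA4 (275 and 292 FPKM in F1, 119 and 132 FPKM in F5) and ATP5A1W (12.5 and 17.5 FPKM in F1, 4.16 and 6.26 FPKM in F5) split by follicle.

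Between the follicle stages, most members were close to level while a minority changed in both directions. In a limma fit of follicle and position together, 5 members rose and 13 fell in F1 against F5 (Benjamini-Hochberg adjusted p under 0.05 over all 11203 genes), and 44 were not called. The background in the same fit was 10.4% of all genes rising and 35.8% falling. With this scaling the members' share was below the background among falling genes and close to it among rising genes. The members' median difference was -0.11, and 48 of the 62 lay above the all-gene median of -0.33. The fit has 1 residual degree of freedom, in which the positions stand in for replicates, so its p-values measure only the spread among these 4 libraries.

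The split between rising and falling calls depended on the scaling. With median-ratio scaling, which brings the all-gene median to 0.00, the members' median was 0.26, 22 members rose and 7 fell, against 19.4% of all genes rising and 16.9% falling. With ZP3 left out of the library total, 11 rose and 9 fell, against 14.0% and 26.4% of all genes. Among rising genes the members' share was above the background with median-ratio scaling and close to it with ZP3 left out. Among falling genes it was below the background under both scalings. The calls shared by these scalings and by the other settings that use all 4 libraries were 3 that rose (NDUFA4, ATP5A1W and NDUFB6) and 7 that fell (NDUFB4, SDHA, UQCRC1, ATP5A1, NDUFAF6 and NDUFAF4 among them). The share of all genes that kept a call in all these settings is not given here, so these shared calls cannot be read against all genes. Without F5 distal, in a fit without position, 2 rose and 0 fell, against 2.88% and 3.06% of all genes. Without F5 proximal 1 rose and 3 fell, against 3.61% and 5.06%, and without F1 distal 1 rose and 4 fell, against 4.83% and 12.9%. Each of these fits leaves 1 follicle with a single library, which is assumed to vary like the other.

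**Figure D2:**
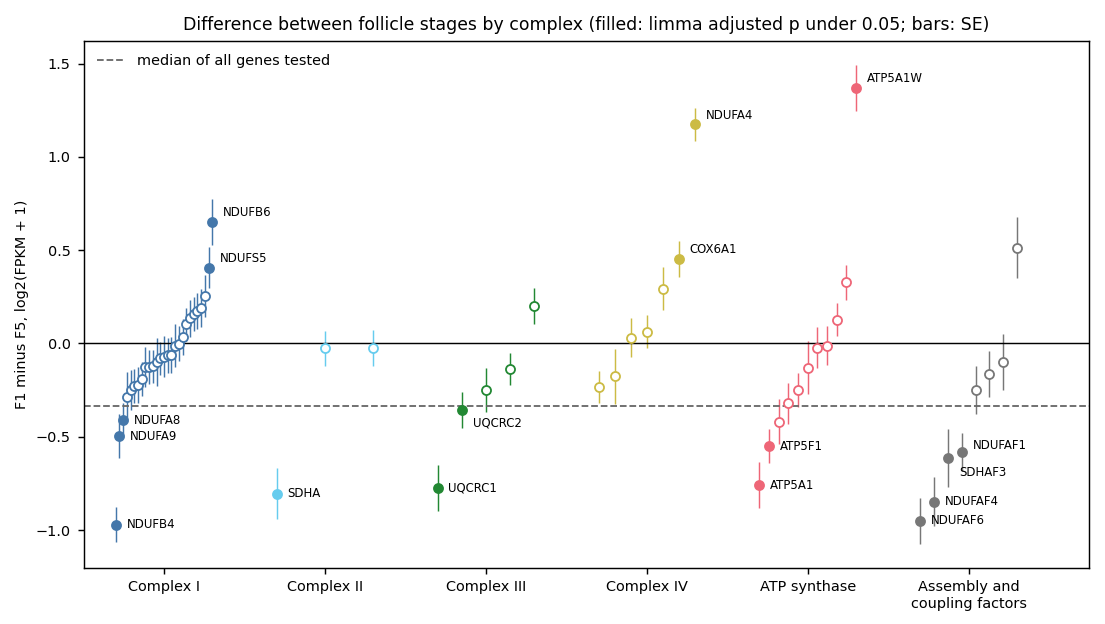
F1 minus F5 from the limma fit on the log2(FPKM + 1) scale for the members, by complex; bars are standard errors, filled points have an adjusted p under 0.05, and the dashed line is the median of all genes tested (-0.33). Complex IV has 2 filled points above 0 and 0 below, and the assembly and coupling factors have 4 below and 0 above.

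The members named as called in all 10 settings using every library lie at these places, given as in the authors' files, for which no genome build is stated. NDUFA4 (ENSGALG00000025999) is on chromosome 2 at 26144942 to 26148789, SDHA is on chromosome 2 at 85681939 to 85697842, and NDUFAF6 is on chromosome 2 at 126201059 to 126216326. NDUFB4 is on chromosome 1 at 79257200 to 79258833, NDUFB6 on chromosome 14 at 13393595 to 13395738, UQCRC1 on chromosome 12 at 9046001 to 9054965 and NDUFAF4 on chromosome 3 at 72069651 to 72073196. ATP5A1 is on chromosome Z at 2151456 to 2159196, while ATP5A1W is on an unplaced sequence. The tables give 1 value per gene, so exons and isoforms are not separated.

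In complex I, 2 of 28 members rose, 4 fell and 22 were not called, with a median difference F1 minus F5 of -0.08. With median-ratio scaling 9 rose and 2 fell. Counts by complex here and below stand against 10.4% of all genes rising and 35.8% falling. With median-ratio scaling these all-gene shares were 19.4% and 16.9%. The 8 members of the NADH-binding arm (N module) held 0 calls in either direction, though NDUFA2 and NDUFV3 among them rose with median-ratio scaling.

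NDUFB4, an accessory subunit of the membrane arm, had 44.9 FPKM in proximal and 40.4 FPKM in distal F1 cells, and 85.8 FPKM in proximal and 82.9 FPKM in distal F5 cells. Both F1 libraries lay below both F5 libraries, at 0.523 and 0.487 times the F5 level in proximal and distal cells. The fitted difference was -0.97 ± 0.10 (SE, log2 scale; limma adjusted p = 0.012). NDUFB6, another membrane-arm accessory subunit, went the other way, with 96.1 FPKM in proximal and 121 FPKM in distal F1 cells, and 68.6 FPKM in proximal and 68.1 FPKM in distal F5 cells. Its fitted difference was 0.65 ± 0.12 (limma adjusted p = 0.024), and both F1 libraries lay above both F5 libraries. NDUFS5, also an accessory subunit, had 66.1 FPKM in proximal and 83.1 FPKM in distal F1 cells, and 54.3 FPKM in proximal and 57.1 FPKM in distal F5 cells. Its difference of 0.41 ± 0.11 had a limma adjusted p of 0.0486 and was called in 5 of the 10 settings that use every library.

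Core subunits carry out the redox reaction. NDUFV1, the flavin-bearing subunit that takes electrons from NADH, had 127 FPKM in proximal and 148 FPKM in distal F1 cells, and 142 FPKM in proximal and 157 FPKM in distal F5 cells, and these ranges overlap. NDUFS1, the largest iron-sulphur subunit of the same arm, had 84.1 FPKM in proximal and 88.9 FPKM in distal F1 cells, and 95.7 FPKM in proximal and 107 FPKM in distal F5 cells (difference -0.23 ± 0.09, limma adjusted p = 0.11). The core members NDUFV2, NDUFS3 and NDUFS7 had differences of -0.10, -0.25 and -0.08, and NDUFS8 was level. These 6 core members were not called, and their differences lay above the all-gene median.

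Core members also differed in level. NDUFV2, the iron-sulphur subunit beside NDUFV1, had 13.8 FPKM in proximal and 13.0 FPKM in distal F1 cells, and 13.6 FPKM in proximal and 15.3 FPKM in distal F5 cells. NDUFS8, an iron-sulphur subunit of the ubiquinone-binding arm, had 129 FPKM in proximal and 146 FPKM in distal F1 cells, and 136 FPKM in proximal and 139 FPKM in distal F5 cells. NDUFS7, which hands electrons to ubiquinone, had 115 FPKM in proximal and 126 FPKM in distal F1 cells, and 122 FPKM in proximal and 132 FPKM in distal F5 cells. NDUFV2 was thus far below its partners in every library, as a level per length of the gene model used. NDUFS3 had 50.7 FPKM in proximal and 50.5 FPKM in distal F1 cells, and 55.9 FPKM in proximal and 64.9 FPKM in distal F5 cells.

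NDUFA9, an accessory subunit at the junction of the arms, had 35.3 FPKM in proximal and 36.5 FPKM in distal F1 cells, and 45.5 FPKM in proximal and 57.4 FPKM in distal F5 cells (difference -0.50 ± 0.12, limma adjusted p = 0.037). NDUFA8 had 53.4 FPKM in proximal and 44.3 FPKM in distal F1 cells, and 69.2 FPKM in proximal and 61.2 FPKM in distal F5 cells (difference -0.41 ± 0.09, limma adjusted p = 0.034). In both genes the F1 libraries lay below the F5 libraries, and both calls were lost with median-ratio scaling. The remaining 22 complex I members ranged from -0.29 for NDUFS4 to 0.26 for NDUFV3.

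In complex II, SDHA fell while its membrane anchors were not called. SDHA, the flavoprotein that oxidises succinate, had 40.5 FPKM in proximal and 32.8 FPKM in distal F1 cells, and 62.2 FPKM in proximal and 66.8 FPKM in distal F5 cells. Both F1 libraries were the lower ones, with a fitted difference of -0.81 ± 0.14 (limma adjusted p = 0.020). The anchor SDHC had 156 FPKM in proximal and 175 FPKM in distal F1 cells, and 151 FPKM in proximal and 188 FPKM in distal F5 cells. The anchor SDHD had 68.2 FPKM in proximal and 68.8 FPKM in distal F1 cells, and 66.6 FPKM in proximal and 73.0 FPKM in distal F5 cells. For both anchors the F1 and F5 ranges overlapped, with differences of -0.03 and -0.02, and both rose with median-ratio scaling.

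In complex III, the 2 core proteins fell and the 3 small subunits were not called. UQCRC1, a core protein on the matrix side that carries no redox centre, had 114 FPKM in proximal and 109 FPKM in distal F1 cells, and 174 FPKM in proximal and 210.1 FPKM in distal F5 cells (difference -0.77 ± 0.12, limma adjusted p = 0.018). Its partner UQCRC2 had 95.1 FPKM in proximal and 99.0 FPKM in distal F1 cells, and 116 FPKM in proximal and 134 FPKM in distal F5 cells (difference -0.36 ± 0.10, limma adjusted p = 0.047). The F1 libraries were the lower ones for both, but the difference of UQCRC2 was close to the all-gene median and was 0.03 with median-ratio scaling. UQCRH, the hinge protein next to cytochrome c1, had 220.2 FPKM in proximal and 235 FPKM in distal F1 cells, and 239 FPKM in proximal and 261 FPKM in distal F5 cells. UQCR11 and UQCR10 had fitted differences of -0.25 and 0.20, neither called, and UQCR10 rose with median-ratio scaling.

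In complex IV, 2 of 7 members rose, 0 fell and 5 were not called, with a median difference of 0.06, and all 7 lay above the all-gene median. The summed level of the 7 was 1762 FPKM in proximal and 1824 FPKM in distal F1 cells, and 1374 FPKM in proximal and 1504 FPKM in distal F5 cells. On this scale the sums of the other complexes were lower in F1 at both positions. With median-ratio scaling the sum of every complex was higher in F1 at both positions, so that rise is not particular to complex IV. In complex IV 5 members then rose and 0 fell.

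NDUFA4 is named for complex I and is assigned to complex IV. It had 275 FPKM in proximal and 292 FPKM in distal F1 cells, and 119 FPKM in proximal and 132 FPKM in distal F5 cells. Both F1 libraries lay far above both F5 libraries, with FPKM ratios of 2.32 in proximal cells (95% exact counting interval 2.20 to 2.44) and 2.22 in distal cells (2.11 to 2.33). The fitted difference was 1.17 ± 0.09 (limma adjusted p = 0.010). It was the 1 member called in all 14 settings, and its difference ran from 1.10 to 1.56 over them. The 4 settings that leave out a library have a single library in 1 follicle and are no independent support. Counting intervals here and below are exact (Clopper-Pearson) at 95%, come from reads recovered from the FPKM, and cover counting error only.

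COX6A1, the ubiquitous isoform of subunit 6A, had 446 FPKM in proximal and 536 FPKM in distal F1 cells, and 345 FPKM in proximal and 369 FPKM in distal F5 cells. Both F1 libraries were higher, with a difference of 0.45 ± 0.10 (limma adjusted p = 0.030) that was called in 8 of the 10 settings using every library. COX6C, whose levels are given above, was also higher in both F1 libraries but not called (0.29 ± 0.12, limma adjusted p = 0.11), and it rose with median-ratio scaling and with ZP3 left out of the total. COX4I1, the ubiquitous isoform of the regulatory subunit 4, had 177 FPKM in proximal and 200.3 FPKM in distal F1 cells, and 210.3 FPKM in proximal and 233 FPKM in distal F5 cells, the lowest difference of the complex (-0.23 ± 0.09, limma adjusted p = 0.094). COX5A had 199 FPKM in proximal and 206 FPKM in distal F1 cells, and 186 FPKM in proximal and 203 FPKM in distal F5 cells, with overlapping ranges.

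COX7A2, the broadly expressed isoform of subunit 7A, had 79.4 FPKM in proximal and 71.9 FPKM in distal F1 cells, and 76.3 FPKM in proximal and 96.0 FPKM in distal F5 cells. Its relative COX7A2L, which joins complexes III and IV into supercomplexes, had 12.6 FPKM in proximal and 12.6 FPKM in distal F1 cells, and 16.5 FPKM in proximal and 13.9 FPKM in distal F5 cells. COX7A2 was the more abundant of this pair in every library, and neither was called. COX7C had a difference of 0.03.

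In the ATP synthase, 1 of 11 members rose, 2 fell and 8 were not called, with a median difference of -0.13. With median-ratio scaling 4 rose and 1 fell. ATP5A1, the alpha subunit on the Z chromosome, had 148 FPKM in proximal and 141 FPKM in distal F1 cells, and 222 FPKM in proximal and 269.9 FPKM in distal F5 cells. ATP5A1W, its copy named for the W chromosome and placed on an unassigned sequence in the files, had 12.5 FPKM in proximal and 17.5 FPKM in distal F1 cells, and 4.16 FPKM in proximal and 6.26 FPKM in distal F5 cells. The alpha subunit copies thus moved in opposite directions: the F1 libraries were lower for ATP5A1 (-0.76 ± 0.12, limma adjusted p = 0.019) and higher for ATP5A1W (1.37 ± 0.12, limma adjusted p = 0.011).

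The ATP5A1W ratios of F1 to F5 were 3.01 in proximal cells (counting interval 2.47 to 3.69) and 2.79 in distal cells (2.37 to 3.31), and those of ATP5A1 were 0.665 (0.640 to 0.691) and 0.522 (0.501 to 0.544). These copies are near-identical genes, and how the authors' counting divided reads between them is not stated, so both values are uncertain. Without ATP5A1W the other 61 members held 4 that rose and 13 that fell, with a median of -0.12.

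ATP5F1, the b subunit of the peripheral stalk, had 57.4 FPKM in proximal and 60.7 FPKM in distal F1 cells, and 84.9 FPKM in proximal and 89.1 FPKM in distal F5 cells. Both F1 libraries were lower by a similar ratio, 0.676 in proximal and 0.681 in distal cells (fitted difference -0.55 ± 0.09, limma adjusted p = 0.019), and the call was lost with median-ratio scaling. The central stalk subunits ATP5C1 (gamma) and ATP5D (delta) had differences of -0.42 ± 0.12 and 0.33 ± 0.09 with limma adjusted p of 0.055 and 0.053. ATP5C1 had 91.0 FPKM in proximal and 87.9 FPKM in distal F1 cells, and 109 FPKM in proximal and 132 FPKM in distal F5 cells. ATP5D had 328 FPKM in proximal and 348 FPKM in distal F1 cells, and 249.8 FPKM in proximal and 289.6 FPKM in distal F5 cells. The F1 and F5 ranges of these stalk subunits did not overlap and lay in opposite order, and ATP5D rose with median-ratio scaling and with ZP3 left out of the total.

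The c ring genes ATP5G2 and ATP5G3 encode the same mature protein by way of different precursors in mammals. ATP5G3 had 278 FPKM in proximal and 334 FPKM in distal F1 cells, and 263 FPKM in proximal and 296 FPKM in distal F5 cells. ATP5G2 had 199.6 FPKM in proximal and 242 FPKM in distal F1 cells, and 218 FPKM in proximal and 226 FPKM in distal F5 cells. ATP5G3 was the higher of the pair in every library, and neither was called, though ATP5G3 rose with median-ratio scaling. ATP5B was lower in F1 than in F5 at each position, at ratios of 0.833 (counting interval 0.816 to 0.849) in proximal and 0.847 (0.831 to 0.864) in distal cells, with a fitted difference of -0.25 ± 0.09 (limma adjusted p = 0.089) that turned to 0.14 with median-ratio scaling and was called in neither. ATP5J2, the f subunit and the lowest subunit of the set, had 7.33 FPKM in proximal and 6.48 FPKM in distal F1 cells, and 8.93 FPKM in proximal and 6.51 FPKM in distal F5 cells.

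Among the assembly and coupling factors, 0 of 8 rose, 4 fell and 4 were not called, with a median difference of -0.42. Of all genes, 10.4% rose and 35.8% fell, with a median of -0.33, so these few factors lay near the background. With median-ratio scaling 1 factor rose and 2 fell, against 19.4% and 16.9% of all genes. NDUFAF6, needed early in complex I assembly, had 8.57 FPKM in proximal and 6.17 FPKM in distal F1 cells, and 16.7 FPKM in proximal and 13.5 FPKM in distal F5 cells (difference -0.95 ± 0.12, limma adjusted p = 0.015). NDUFAF4, another complex I assembly factor, had 7.14 FPKM in proximal and 5.16 FPKM in distal F1 cells, and 12.9 FPKM in proximal and 10.7 FPKM in distal F5 cells (difference -0.85 ± 0.13, limma adjusted p = 0.018). For both, each F1 library lay below each F5 library, and the reads behind a library's value numbered 73 to 236.

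NDUFAF1, which binds the growing membrane arm of complex I, had 29.8 FPKM in proximal and 27.1 FPKM in distal F1 cells, and 43.5 FPKM in proximal and 42.8 FPKM in distal F5 cells (difference -0.58 ± 0.10, limma adjusted p = 0.021). SDHAF3, which helps to mature the iron-sulphur subunit of complex II, had 7.62 FPKM in proximal and 5.26 FPKM in distal F1 cells, and 10.6 FPKM in proximal and 9.87 FPKM in distal F5 cells (difference -0.61 ± 0.16, limma adjusted p = 0.042). Both were lower in F1 at each position, and both calls were lost with median-ratio scaling. NDUFAF7, a methyltransferase, and NDUFAF2, which acts late in complex I assembly, had differences of -0.16 and -0.10 and were not called.

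ATP5S, a coupling factor of the ATP synthase, had 2.44 FPKM in proximal and 3.24 FPKM in distal F1 cells, and 1.57 FPKM in proximal and 1.78 FPKM in distal F5 cells, the lowest mean of the set. Both F1 libraries were higher, but the values rest on 22 to 38 reads per library and the difference of 0.51 ± 0.16 was not called (limma adjusted p = 0.064). ATP5S rose with median-ratio scaling and with ZP3 left out of the total.

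The follicle difference could also be taken within each position, from libraries that are not shared. In proximal cells 2 members were at least 1.5-fold higher in F1 and 7 at least 1.5-fold lower, against a background of 8.62% and 24.7% of all genes. In distal cells 4 were higher and 10 lower, against 9.65% and 37.3%. On the FPKM scale as deposited, the members' share was again below the background among lower genes, while the counts of higher members were small. At both positions the higher ones were NDUFA4 and ATP5A1W, and the 7 lower ones included NDUFB4, SDHA, UQCRC1, ATP5A1, NDUFAF6 and NDUFAF4. Regardless of size, 17 members were higher in F1 at both positions, 33 were lower at both and 12 went opposite ways. All-gene shares over both positions are not given here, so the counts at both positions cannot be read against all genes. Within each position, 36 of the 62 members were lower in proximal and 42 in distal cells, against 72.1% and 74.7% of all genes. The members' median was -0.09 in proximal and -0.13 in distal cells, against -0.27 and -0.40 for all genes. These members' medians were above 0 with median-ratio scaling and with ZP3 left out of the total.

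**Figure D3:**
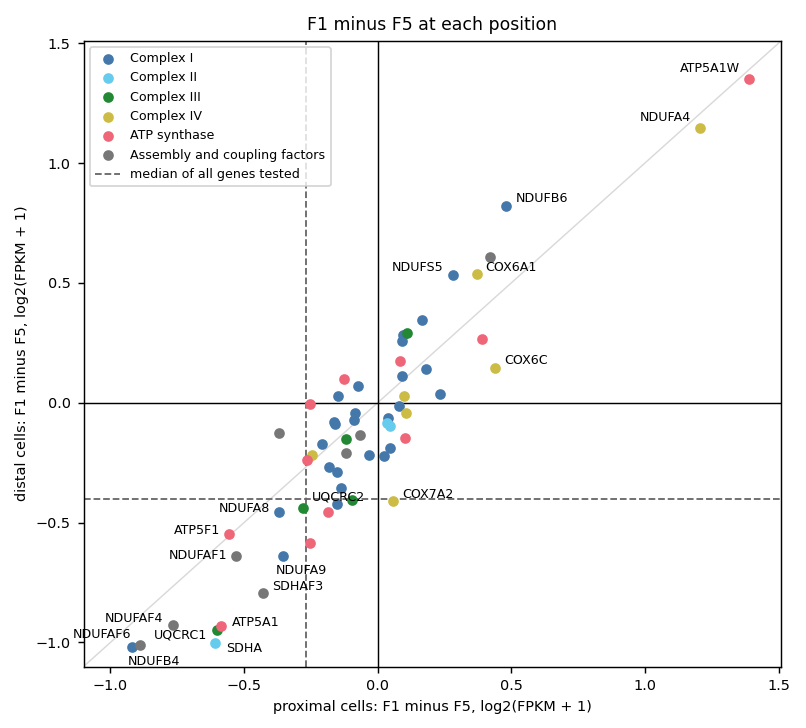
F1 minus F5 on the log2(FPKM + 1) scale in proximal cells (horizontal axis) and distal cells (vertical axis), 1 point per member shown, coloured by complex; dashed lines are the medians of all genes tested (-0.27 and -0.40) and the grey line marks equal differences. Called members, COX6C and COX7A2 are named, and NDUFA4 and ATP5A1W stand apart at the upper right.

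Gene length varied with the follicle difference among members. Across the 62 members, the Spearman correlation of length with F1 minus F5 was -0.42, and across the 54 subunits -0.45, against -0.09 across all 11203 genes. The Pearson correlation with log2 length was weaker, at -0.25, -0.28 and -0.04 in that order. These lengths were recovered from the FPKM together with the reads, and a common factor can understate both. The 35 members under 1000 bases had a median difference of -0.02 with 2 that rose and 4 that fell, and the 27 longer members had -0.23 with 3 and 9. For all genes these medians were -0.24 and -0.36, with 11.4% rising and 27.5% falling among the shorter genes and 10.2% and 38.1% among the longer ones. Members share the same libraries and are not independent replicates, and the part that length plays in the members' differences was not tested.

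By position, 0 members were called in either direction, and the background was 0.0% of all genes rising and 0.0% falling in limma. At an unadjusted p under 0.05 there were 4 members and 1535 of all genes. With median-ratio scaling, 31 members lower in proximal cells and 0 higher ones had an unadjusted limma p under 0.05. None was called, and the all-gene count at that scaling is not given here. The members' fitted median was then -0.29, against -0.04 for all genes. The smallest limma adjusted p of a member was 0.275, for NDUFA12. Limma with voom weights called 0 members, and also 0 of all genes in either direction. The size rule found 0 members at least 1.5-fold higher or lower in proximal against distal cells of F1 follicles, where 14.0% of all genes were higher and 1.39% lower. It also found 0 in either direction in F5 follicles, where 5.52% of all genes were higher and 1.56% lower.

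The members' position differences were small and mostly on the distal side of the all-gene median. The Spearman correlation of mean FPKM with the fitted position difference was -0.45 across members and -0.16 across all genes. The part that level plays in the members' position differences was not tested. The median difference proximal minus distal was -0.01 in F1 and -0.11 in F5 follicles, against 0.20 and 0.07 for all genes. With median-ratio scaling the F1 median was -0.28. Of the 62 members, 55 lay below the all-gene median in F1 follicles and 50 in F5 follicles. Against 0, 33 were lower in proximal than distal cells of F1 follicles and 43 in F5 follicles. Members lower in proximal cells of both follicles numbered 27, those higher in both 13, and 22 went opposite ways. All-gene shares over both follicles are not given here, so these counts cannot be read against all genes.

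Over all 11203 genes, 77.5% were higher and 22.4% lower in proximal than distal cells of F1 follicles, and 63.0% were higher and 36.9% lower in F5 follicles. In F1 follicles 5 of 7 complex IV members, 6 of 11 ATP synthase members, 3 of 5 complex III members, 2 of 3 complex II members and 15 of 28 complex I members were lower in proximal than distal cells. There 6 of 8 assembly and coupling factors were higher, a share close to that of all genes. In F5 follicles all 7 complex IV members, 10 of 11 ATP synthase members, 3 of 3 complex II members, 4 of 5 complex III members and 18 of 28 complex I members were lower in proximal cells, while 7 of 8 assembly and coupling factors were higher. None of these differences passed the test, and that between the complexes and the assembly factors was not tested.

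ATP5B showed nearly the same ratio of proximal to distal cells in both follicles, 0.830 in F1 (counting interval 0.813 to 0.848) and 0.844 in F5 (0.829 to 0.860). ATP5A1W had the lowest fitted position difference (-0.47, limma adjusted p = 0.32). NDUFA12, an accessory subunit of the NADH-binding arm, had the highest, with 59.7 FPKM in proximal and 45.2 FPKM in distal F1 cells, and 69.2 FPKM in proximal and 51.0 FPKM in distal F5 cells. Its ratios were 1.32 in F1 and 1.36 in F5 follicles, and the fitted difference was 0.42 (limma adjusted p = 0.275). NDUFAF6 and NDUFAF4 were next in size among the members higher in proximal cells, with fitted differences of 0.35 and 0.32.

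The authors' deposited table of fold changes, proximal against distal cells, gave the members a median log2 fold change of -0.25 in F1 and -0.21 in F5, with 56 and 51 of 62 below 0. Its medians over all genes tested were -0.01 in F1 and -0.02 in F5, with 5651 of 11114 and 5948 of 11180 genes below 0. In the authors' deposited table ATP5A1W was the lowest member in both follicles, at -0.72 in F1 and -0.68 in F5. The table thus placed the members lower than the FPKM differences did, and all genes nearer to 0.

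Of the 4 oocyte and germ cell markers that passed the filter, 0 were called by position. The 7 found summed to 15.2 FPKM in proximal and 0.851 FPKM in distal F1 cells, and to 42.0 FPKM in proximal and 4.61 FPKM in distal F5 cells. DAZL had 2.80 FPKM in proximal F1 cells and was listed at 0 in distal F1 cells. The fitted position differences of ZP2 and DAZL were 3.00 and 2.04, with limma adjusted p of 0.083 and 0.10. Those of BMP15 and SYCP3 were 2.10 and 0.08. AMH of the granulosa list was not called either (2.76, limma adjusted p = 0.10), with 6.96 FPKM in proximal and 0.508 FPKM in distal F1 cells, and 21.2 FPKM in proximal and 1.55 FPKM in distal F5 cells. By follicle, ZP2 fell by 1.61 (limma adjusted p = 0.011) and AMH by 1.12 (limma adjusted p = 0.028). BMP15, SYCP3 and DAZL were not called by follicle (-0.76, -0.52 and -0.23). Of the 11 granulosa markers tested, 6 rose and 3 fell by follicle. The part of these markers in the members' differences by position and by follicle was not tested.

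**Figure D4:**
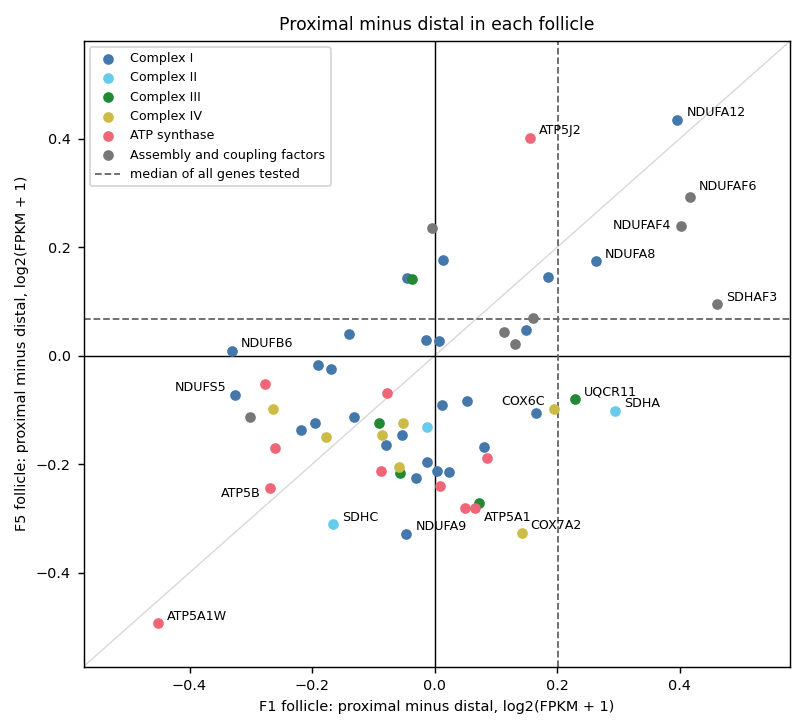
Proximal minus distal on the log2(FPKM + 1) scale in F1 follicles (horizontal axis) and F5 follicles (vertical axis), 1 point per member shown, coloured by complex; dashed lines are the medians of all genes tested (0.20 and 0.07). Most points lie left of and below the dashed lines, NDUFA12 lies highest on the proximal side in F5 follicles and ATP5A1W lowest in both follicles.

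Other mitochondrial genes were counted in lists set beside the members. Their counts with median-ratio scaling are given too, an alternative chosen after seeing the data. Counts of each list stand against 10.4% of all genes rising and 35.8% falling. With median-ratio scaling these all-gene shares were 19.4% and 16.9%. The subunits encoded in mitochondrial DNA had 12 genes tested, of which 0 rose and 5 fell in F1 against F5, with a median of -0.28. Among them ATP8 had 62.2 FPKM in proximal and 31.7 FPKM in distal F1 cells, and 87.7 FPKM in proximal and 83.8 FPKM in distal F5 cells (limma adjusted p = 0.044). ND2, a complex I subunit, differed by -0.68 (limma adjusted p = 0.019), while ND1 and ND6 were highest at 0.11 and 0.03 and were not called. With median-ratio scaling 0 rose and 0 fell. Poly-A selection was used, so these levels depend on the tails of mitochondrial RNA.

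Of 18 genes of the TCA cycle and pyruvate dehydrogenase, which deliver the electrons, 1 rose and 11 fell, with a median of -0.50. PDHA1, the alpha subunit of pyruvate dehydrogenase, had 45.0 FPKM in proximal and 32.5 FPKM in distal F1 cells, and 89.9 FPKM in proximal and 93.1 FPKM in distal F5 cells, a difference of -1.23 (limma adjusted p = 0.014). SUCLG2, a subunit of succinate-CoA ligase, differed by -1.01 (limma adjusted p = 0.015). IDH3G, a regulatory subunit of NAD-dependent isocitrate dehydrogenase, was the 1 that rose, with 83.0 FPKM in proximal and 109.8 FPKM in distal F1 cells, and 34.6 FPKM in proximal and 48.4 FPKM in distal F5 cells (1.20, limma adjusted p = 0.010). The next highest, DLST, differed by 0.16 and was not called. With median-ratio scaling 2 genes rose and 5 fell; PDHA1 and SUCLG2 still fell and IDH3G still rose.

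Of 22 assembly factors with names outside the rule, 0 rose and 7 fell, with a median of -0.35. ACAD9, which works with NDUFAF1 in complex I assembly, had 36.7 FPKM in proximal and 33.8 FPKM in distal F1 cells, and 88.7 FPKM in proximal and 112 FPKM in distal F5 cells (-1.47, limma adjusted p = 0.012). TMEM70, an assembly factor of the ATP synthase, differed by -1.08 (limma adjusted p = 0.016). COX19 and TMEM186 were highest at 0.09 and 0.08, not called. With median-ratio scaling 1 rose (COX19) and 3 fell, ACAD9 and TMEM70 among them. Both ACAD9 libraries of F1 lay well below those of F5, as for the members NDUFAF1, NDUFAF4 and NDUFAF6.

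Of 15 regulators of mitochondrial biogenesis that were tested, 0 rose and 11 fell, with a median of -0.73. PPARGC1B, a coactivator of mitochondrial genes, had 1.97 FPKM in proximal and 1.40 FPKM in distal F1 cells, and 5.88 FPKM in proximal and 9.50 FPKM in distal F5 cells (-1.67, limma adjusted p = 0.019). ESRRB, an orphan nuclear receptor, differed by -1.37 (limma adjusted p = 0.013), and SSBP1 and PEO1, which act in copying mitochondrial DNA, by -0.27 and -0.29, not called. With median-ratio scaling 0 rose and 5 fell, PPARGC1B and ESRRB among them. Of 58 mitochondrial ribosomal proteins, 6 rose and 12 fell, with a median of -0.15. They ran from MRPL53 at -1.11 and MRPS5 at -1.02, both called, to MRPS12 at 0.60 and MRPS14 at 0.68, both called. With median-ratio scaling 13 rose and 7 fell, and these 4 kept their calls.

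Of 19 genes of import and the outer membrane, 2 rose and 7 fell, with a median of -0.33. TIMM44 and TIMM22, parts of the inner membrane translocases, were lowest at -0.71 and -0.63. VDAC1, an outer membrane channel, and TIMM17A were highest at 1.05 and 0.37, and all 4 were called. VDAC1 was low, with 3.87 and 4.57 FPKM in proximal and distal F1 cells, and 1.74 and 1.32 FPKM in proximal and distal F5 cells. The more abundant channels VDAC2 and VDAC3 differed by -0.33 and -0.55, with limma adjusted p of 0.071 and 0.038. With median-ratio scaling 4 rose and 0 fell. Of 5 carriers and related genes, 1 rose and 0 fell, with a median of -0.02; the one that rose was SLC25A6, an adenine nucleotide carrier, at 0.42, which rose with median-ratio scaling as well. By position, 0 genes of any of these lists were called. No difference between these lists and the members was tested.

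**Figure D5:**
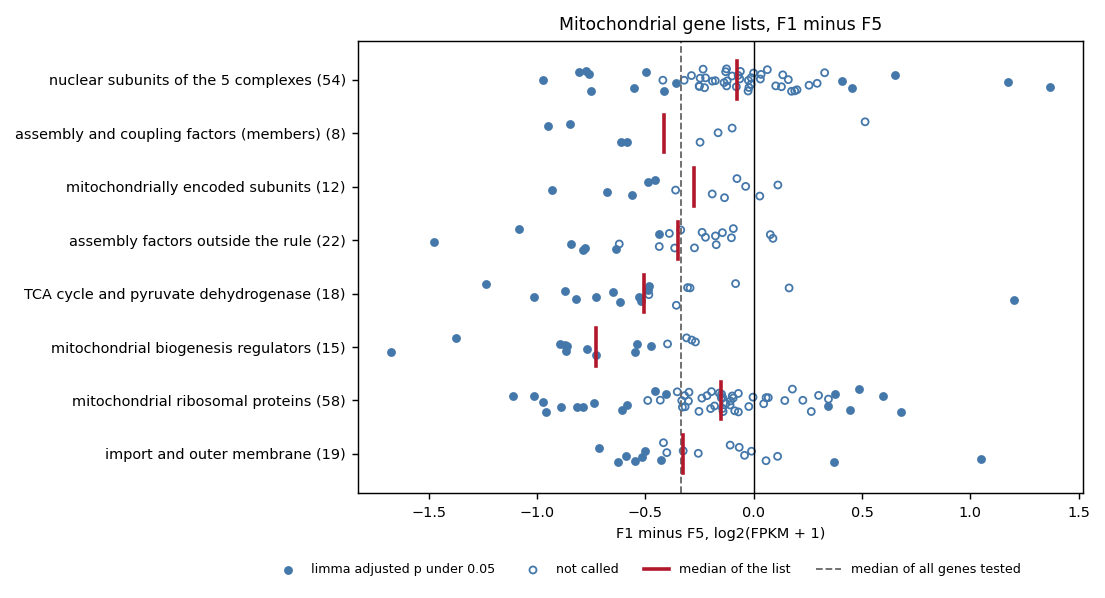
F1 minus F5 from the limma fit on the log2(FPKM + 1) scale for each gene of 8 sets, with the number tested in brackets; filled points have an adjusted p under 0.05, red bars are medians of the list and the dashed line is the median of all genes tested (-0.33). The bar of the nuclear subunits lies right of the dashed line at -0.08, and that of the biogenesis regulators left of it at -0.73.

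Another 8 rows without a usable name carried protein domain labels of the respiratory complexes in the deposited tables; they were looked for after values had been seen. Of these, 0 rose and 1 fell: a row with an iron-sulphur protein domain of succinate dehydrogenase had 4.72 FPKM in proximal and 4.88 FPKM in distal F1 cells, and 8.12 FPKM in proximal and 9.97 FPKM in distal F5 cells (-0.79, limma adjusted p = 0.022). A further row with the same domain, at a higher level, had 32.0 FPKM in proximal and 36.5 FPKM in distal F1 cells, and 39.3 FPKM in proximal and 46.6 FPKM in distal F5 cells and was not called (-0.32, limma adjusted p = 0.062). A row with the domain of cytochrome c oxidase subunit 8 had 201 FPKM in proximal and 316 FPKM in distal F1 cells, and 167 FPKM in proximal and 150.0 FPKM in distal F5 cells (0.67, limma adjusted p = 0.070).

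Of the 62 members, 8 overlap another row in the files' coordinates (NDUFV1, NDUFA5, COX7C, ATP5B, COX7A2L, ATP5J2, NDUFAF2 and ATP5S), 4 of them on the same strand. Whether counting used strand is not stated, so reads of these genes and of their partners may not be separable. None of these 8 was called by follicle, though COX7C and ATP5S rose with median-ratio scaling. For 54 members the chromosome in the files was that of the RefSeq gene of the same name in assembly GRCg7b, 5 lay on unplaced sequence in the files, 2 had no entry, and ATP5J2 differed (chromosome 18 in the files and 14 in RefSeq).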

How the data were processed

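RNA of 4 granulosa cell libraries was analysed, 1 per group. The authors deposited 1 table per library with FPKM values, and also log2 fold changes between the 2 positions of each follicle, per the file headers. TopHat2 2.0.12 and HTSeq 0.6.1 were used, per the submitters' processing notes. The genome build and the strand setting are not given in the sources used here. FPKM ratios between libraries gave the library totals and whole reads (tolerance 1e-08) for 100.0% of 16894 rows above 0. The recovered reads can be understated by a common factor, which makes counting intervals too wide. The length behind the FPKM is not the deposited length column for any member.

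Analyses used log2(FPKM + 1), a scale that understates changes of low genes. The 11203 of 19309 rows averaging 1 FPKM or more were tested with limma 3.58.1 (R 4.3.3; trended empirical Bayes, two-sided, Benjamini-Hochberg adjustment over all of them, threshold 0.05) on follicle and position together. A fit with 1 residual degree of freedom leans on the spread shared between genes. On simulated libraries it made more false calls than its threshold allows among genes under 10 FPKM, a range that NDUFAF4, SDHAF3 and ATP5S reach and NDUFAF6 and ATP5A1W come near. Far fewer genes differed in those simulated libraries than were called here, so the share of false calls here may differ. Pairs of libraries have no replicate check and no p-value; a difference of 1.5-fold on the log2(FPKM + 1) scale served as the rule of size. Alternatives were pseudocounts of 0.1 and 5, other filters, 3 scalings, voom weights, no second factor and each library left out, 13 in all for the fit. Members and lists were chosen with earlier results of these data known. In each complex the genes named are the highest by level, the 2 highest and 2 lowest by follicle difference, the extremes by position, members past 1.5-fold against their complex, the core subunits and paired isoforms. From each other mitochondrial list at most 2 of each end are named, with VDAC2 and VDAC3 added beside VDAC1. The values of 1 member are not reported here, and it is not named in figures; counts over all members include it.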

Additional observations from a re-analysis of the deposited data

Results flagged for a closer look

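5 members had differences of opposite sign in the 2 follicles or at the 2 positions, with both counting intervals off 1. Each rests on 1 library per group, and the difference between the opposite values was not tested. For the ratio of proximal to distal cells, SDHA had 1.23 in F1 and 0.931 in F5, COX7A2 had 1.10 in F1 and 0.795 in F5, COX6C had 1.14 in F1 and 0.935 in F5, and ATP5A1 had 1.05 in F1 and 0.822 in F5. In these 4 genes the F1 ratio was the higher one, as was the all-gene median of the same comparison (0.20 in F1 and 0.07 in F5 on the log2 scale). For the ratio of F1 to F5, ATP5G2 had 0.917 in proximal and 1.07 in distal cells. The F1 counting interval of ATP5A1 reached down to 1.0002. All these ratios are on the FPKM scale as deposited. Median-ratio scaling divides F1 proximal and distal by 0.968 and 0.799, and F5 proximal and distal by 1.20 and 1.11. The opposite signs of COX7A2, COX6C, ATP5A1 and ATP5G2 are then lost, and the F1 ratio of SDHA comes close to 1.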

How the results depend on the processing

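The calls by follicle were most sensitive to scaling and to the libraries used. Members that rose numbered 5, and 3 without the filter, 22 with median-ratio scaling, 11 with ZP3 left out of the total and 3 without the position term. The shares of all genes that rose were 10.4%, 6.1%, 19.4%, 14.0% and 7.82% in that order. Members that fell numbered 13, and 7 with median-ratio scaling, against 35.8% and 16.9% of all genes. Fits that leave out a library have a single library in 1 follicle. Counts of 3 of these fits stand above beside their all-gene shares. Without F1 proximal, the members' median difference F1 minus F5 was -0.09, against -0.44 for all genes. UQCRC2 reversed to 0.028 with median-ratio scaling. The 18 called members held 71 further losses of the call with no change of sign, and the other 162 values kept both. The medians of F1 minus F5 reversed to 0.20 in proximal and 0.32 in distal cells with median-ratio scaling, and to 0.046 and 0.066 with ZP3 left out. The median of F1 proximal minus F1 distal moved to -0.28 with median-ratio scaling. By the size rule, F1 proximal against F5 proximal held 7 higher with median-ratio scaling, and 3 lower with a pseudocount of 5, 2 with median-ratio scaling, 3 with ZP3 left out and 0 at 2-fold. F1 distal against F5 distal held 14 higher with median-ratio scaling and 2 at 2-fold, and 1 lower with median-ratio scaling and 3 at 2-fold. F1 proximal against F1 distal held 3 lower with median-ratio scaling. The all-gene shares of the size rule at these alternative settings are not given here, so these counts cannot be read against all genes. The scaling itself moves all genes together; other causes were not tested. Of the other mitochondrial lists, counts with median-ratio scaling stand beside each list. Calls by position stayed at 0 members in all alternatives run. Of all genes, 154 were called higher and 5 lower in proximal cells with a pseudocount of 5. With a common total over all genes, 51 were called higher and 0 lower. The other settings using every library called 0 of all genes by position, so 0 members there does not show that position differences are absent. No paired analysis was possible because each group has 1 library. The counting interval of a member's ratio had a median half-width of about 0.12 on the log2 scale, and differences between hens were not measurable.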
